A study of Mus musculus with 6 samples.

Results

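The ADAM proteins are membrane proteins that carry a disintegrin and a metalloprotease domain, and a branch of the family is transcribed mainly in the male germ line. In mice and rats this branch has grown by gene duplication, and several of the copies sit close together on mouse chromosome 8. Adam24, Adam25 and Adam26a were described as testases, testis ADAM proteins with a protease domain, and Adam21, Adam29 and Adam30 are testis ADAM genes that also have human counterparts. Prss55 encodes a membrane-anchored serine protease of the testis, and the arrays compared testis RNA with and without a functional copy of it.

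The genes described here were the 9 testis ADAM genes Adam21, Adam24, Adam25, Adam26a, Adam26b, Adam29, Adam30, Adam34 and Adam39, chosen by name. A probe was taken as theirs if the array files name it so, which gave 11 probes of 7 genes among 41174 probes with 27376 different gene names. The array files name 0 probes Adam26b or Adam34. Total RNA came from testes of 3 Prss55-/- mice and 3 wt mice, aged 6 to 8 weeks, and each was hybridised to 1 single-colour whole mouse genome array. The Prss55-/- line was made by homologous recombination and kept on a mixed 129Sv/C57BL/6 background by crossing heterozygotes, so which strain's alleles a mouse carried could vary between mice. Whole testis was used, so more or fewer cells of a type and more or less RNA per cell cannot be told apart.

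Signals were background-corrected spot intensities, put on a log2 scale and quantile-normalised over the 6 arrays. Between 69.5% and 72.9% of spots lay well above background on an array, 0 were saturated, and the number of arrays limits the precision. No slide carried both genotypes, and the 3 slides split into 1 for Prss55-/- and 2 for wt, so no difference could be taken within a slide. Slide 2 held wt replicates 1 and 2, and slide 3 held wt replicate 3 alone. The targeted gene was checked first. The Prss55 probe read 15.08, 14.95 and 14.93 on the Prss55-/- arrays and 15.87, 15.77 and 16.01 on the wt arrays, and fell by 46.4% (limma, adjusted p = 0.010). This call was lost under 5 of 14 alternatives, with adjusted p from 0.0667 to 0.101: the replicate block, the methods' t-test, and without Prss55-/- replicate 2, Prss55-/- replicate 3 or wt replicate 1. Whether this probe lies inside the replaced part of the gene was not determined, so a remaining signal says nothing of a functional product. The study reported PRSS55 absent from this line, in RNA by RT-PCR and in protein by Western blot and immunofluorescence. Every spermatocyte, round spermatid and elongating spermatid marker had a probe well above background on all 6 arrays, while 5 of the 7 epididymis markers (Lcn5, Lcn8, Crisp1, Defb42 and Adam7) were not well above background on any array. The remaining epididymis markers, Cst8 and Adam28, each had a probe well above background on all 6 arrays, and the Cst8 probe stood at the 99.2th percentile.

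The probes decide which transcript a value belongs to, so some of those behind the main results are shown first, 5′ to 3′, as the array files give them. Each is 60 bases long, and each of the 6 printed here reads through without a stop codon in at least 1 forward frame. The Adam26a probe A_52_P373065, which carries that gene's adjusted call, and the Adam24 probe had a stop codon in every forward frame and are not printed. Positions are those of the array files, on the mm9 build. The set shows a gene-specific and a shared Adam26a probe, both Adam29 probes, and the Adam25 and Adam39 probes, which lie 69372 bases apart.
Adam25, A_51_P257892, chr8:41841247-41841306, plus strand: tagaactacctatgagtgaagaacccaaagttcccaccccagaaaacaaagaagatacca
Adam39, A_52_P40394, chr8:41910619-41910678, plus strand: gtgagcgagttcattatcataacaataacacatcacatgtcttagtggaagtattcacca
Adam26a, A_51_P152463, chr8:44653864-44653923, minus strand: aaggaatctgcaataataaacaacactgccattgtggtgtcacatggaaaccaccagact
Adam26a, A_52_P365571, chr8:44654297-44654356, minus strand: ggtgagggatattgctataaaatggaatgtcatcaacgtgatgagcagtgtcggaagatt
Adam29, A_52_P492861, chr8:58350451-58350510, minus strand: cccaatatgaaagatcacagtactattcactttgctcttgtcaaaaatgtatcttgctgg
Adam29, A_52_P538711, chr8:58351626-58351685, minus strand: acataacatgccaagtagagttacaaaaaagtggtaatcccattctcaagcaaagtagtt

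The files list transcript accessions for each probe, and 10 of the 11 probes have at least 1 that RefSeq pairs with a gene. A single gene is listed for 7 of them and several genes for 3. The Adam26a probes A_52_P365571 and A_52_P373065 are each listed for Adam26a, Adam26b and Adam34, so their signal could hold transcripts of all 3 genes, and they are the only readings here that bear on Adam26b and Adam34. The third Adam26a probe, A_51_P152463, is listed for Adam26a alone. The Adam39 probe is listed for Adam39 and Adam25, while the Adam25 probe is listed for Adam25 alone. Values of a shared probe cannot be split between its genes.

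Each of the 11 probes exceeded background clearly on every array, and all were tested. On average over the arrays their normalised signals stood between the 70.0th percentile of all probes, for the Adam30 probe A_51_P202305, and the 94.8th percentile, for Adam24. Brightness also depends on the probe's sequence, so these ranks describe signals and do not order the genes by transcript number.

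The 4 chromosome 8 genes Adam24, Adam25, Adam26a and Adam29 read higher in Prss55-/- testis on each of their 7 probes, with every Prss55-/- array above every wt array, and the increases were between 1.10-fold and 1.31-fold. Adam26a and Adam29 passed the adjusted threshold of 0.05, with 1 probe each, and Adam24 and Adam25 did not. Across all tested genes, 0.798% were higher with an adjusted p below 0.05, and across all tested probes, 0.559%. The fifth chromosome 8 gene, Adam39, and the genes on other chromosomes, Adam21 and Adam30, had overlapping groups. Of all tested probes, 13.4% had groups that did not overlap and were higher in Prss55-/- testis, against 7 of these 11, and 12.9% were lower, against 0 of 11. With 3 arrays a genotype the two-sided exact permutation test cannot go below p = 0.1, which is its value for each of the 7 probes.

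Adam26a carried 1 of the adjusted calls, on the probe with the least spread among the Prss55-/- arrays. This probe, A_52_P373065, at chr8:44655804-44655863 on the minus strand, read 12.45, 12.43 and 12.45 on the Prss55-/- arrays and 12.03, 12.02 and 12.13 on the wt arrays. The groups lay 0.302 apart at their closest, with SDs of 0.0093 and 0.060 (n = 3 each). The difference was 0.38 on the log2 scale (SE 0.050, limma adjusted p = 0.0326), a 1.30-fold increase with a 95% interval from 1.20 to 1.42. The gene-specific probe A_51_P152463 read 12.78, 12.75 and 12.78 against 12.34, 12.50 and 12.43. Its difference of 0.35 (SE 0.055, limma adjusted p = 0.0517) lay just outside the threshold, and it alone of the 3 is not shared with Adam26b and Adam34. The third probe, A_52_P365571, read 11.33, 11.30 and 11.36 against 10.88, 11.06 and 11.11, a difference of 0.31 (SE 0.071, limma adjusted p = 0.101). On all 3 probes the wt arrays were spread more widely than the Prss55-/- arrays, but the wt arrays lay on 2 slides and the Prss55-/- arrays on 1.

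Adam29, whose human counterpart lacks the zinc-binding motif of an active protease, was measured by a pair of probes with values of different size. The probe A_52_P538711 read 10.58, 10.63 and 10.67 on the Prss55-/- arrays against 10.18, 10.21 and 10.31 on the wt arrays. This 1.31-fold difference (0.39 on the log2 scale, SE 0.056, limma adjusted p = 0.0401) had a 95% interval from 1.19 to 1.44. The other probe, A_52_P492861, lies 1175 bases away and read 11.38, 11.50 and 11.51 against 11.32, 11.31 and 11.34. Its groups did not overlap either, but they were only 0.0323 apart, and its difference of 0.14 (SE 0.054, limma adjusted p = 0.244) did not pass. The 95% intervals of the probes, 0.255 to 0.526 and 0.0069 to 0.271 on the log2 scale, overlap narrowly, and the difference between probes was not tested.

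Both calls depended on the fit. Each held under 7 of 14 alternatives, with adjusted p up to 0.0443 for Adam26a and 0.0483 for Adam29, and was lost under the other 7, with adjusted p from 0.0685 to 0.162 and from 0.0851 to 0.184. The losses came with no filter on dim probes, with the replicate number as a block, with the methods' t-test, and without Prss55-/- replicate 2, Prss55-/- replicate 3, wt replicate 1 or wt replicate 2, while the differences themselves stayed between 0.346 and 0.428. With the slide as a random block, whose estimated correlation was 0.0359, both calls held, but each slide holds 1 genotype, so this fit cannot separate a slide difference from a genotype difference.

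Adam24 and Adam25, whose probes lie 74165 bases apart, did not pass the adjusted threshold. Adam25 read 13.30, 13.34 and 13.30 on the Prss55-/- arrays and 12.94, 12.96 and 13.11 on the wt arrays. Its 1.24-fold difference (0.31 on the log2 scale, SE 0.059, limma adjusted p = 0.0742) missed the threshold, and passed it only when wt replicate 3 was left out (adjusted p = 0.0486). The Adam24 probe, at chr8:41767082-41767141 on the plus strand, read 14.29, 14.22 and 14.27 against 14.03, 14.04 and 14.12. Its difference was 0.20 (SE 0.050, limma adjusted p = 0.121), a 1.15-fold difference that did not pass under any alternative.

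The Adam39 probe, which lies between those of Adam25 and Adam26a, gave overlapping groups. It read 11.57, 11.17 and 11.22 on the Prss55-/- arrays against 11.06, 11.21 and 11.42 on the wt arrays, the widest range of any member probe. The highest value was Prss55-/- replicate 1 and the next highest wt replicate 3, and the groups overlapped. The difference of 0.091 (SE 0.137, limma adjusted p = 0.753) had a 95% interval from -0.243 to 0.426, an interval that holds the differences of Adam24, Adam25, Adam26a and Adam29. Leaving out Prss55-/- replicate 1 turned the value to -0.033, and without wt replicate 1 it was 0.0046, without wt replicate 3 0.185, and it was 0.165 or 0.141 when Prss55-/- replicate 2 or 3 was the array left out. Because the files list this probe for Adam25 as well, its pattern was set beside that of the Adam25 probe, whose 3 Prss55-/- readings lay within 0.0397. A probe that the files name only NAP094436-001 starts 1124 bases further along the same strand, and its listed transcript position is also 1124 bases further on, but the files name no gene for it, and whether it reads the Adam39 transcript was not tested. It read 12.54, 12.59 and 12.54 on the Prss55-/- arrays against 12.12, 12.23 and 12.35 on the wt arrays, without overlap, a difference of 0.32 (SE 0.068, limma adjusted p = 0.0887), and it was picked out after its values were seen.

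Among genes outside the family, the pattern of Adam39 over the 6 arrays was matched closely by 4930447K03Rik (Pearson's r = 0.990), Trex1 (0.985), Mcts1 (0.983) and Pold2 (0.983). Trex1 encodes a DNA exonuclease and Pold2 a subunit of DNA polymerase delta. These r values describe 6 arrays, 140 of 19135 genes had r over 0.9, and no test was made.

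The genes on other chromosomes showed no separation of the groups. Adam21, at chr12:82659925-82659984 on the minus strand, read 12.84, 12.91 and 12.91 on the Prss55-/- arrays against 12.71, 12.76 and 12.86 on the wt arrays. Only wt replicate 3 reached into the Prss55-/- range, and the difference of 0.11 (SE 0.058, limma adjusted p = 0.357) had a 95% interval from -0.031 to 0.252. Adam30, on chromosome 3, had probes of opposite sign. The probe A_52_P539250, at chr3:97965913-97965972, read 12.74, 12.86 and 12.91 against 12.73, 12.92 and 12.68, a difference of 0.059 (limma adjusted p = 0.733). Leaving out 1 array gave values from 0.0091, without wt replicate 3, to 0.129, without wt replicate 2. The probe A_51_P202305, at chr3:97967095-97967154, read 9.82, 10.13 and 10.14 against 10.31, 10.24 and 10.11, a difference of -0.19 (limma adjusted p = 0.390) that was -0.082 without Prss55-/- replicate 1.

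**Figure D1:**
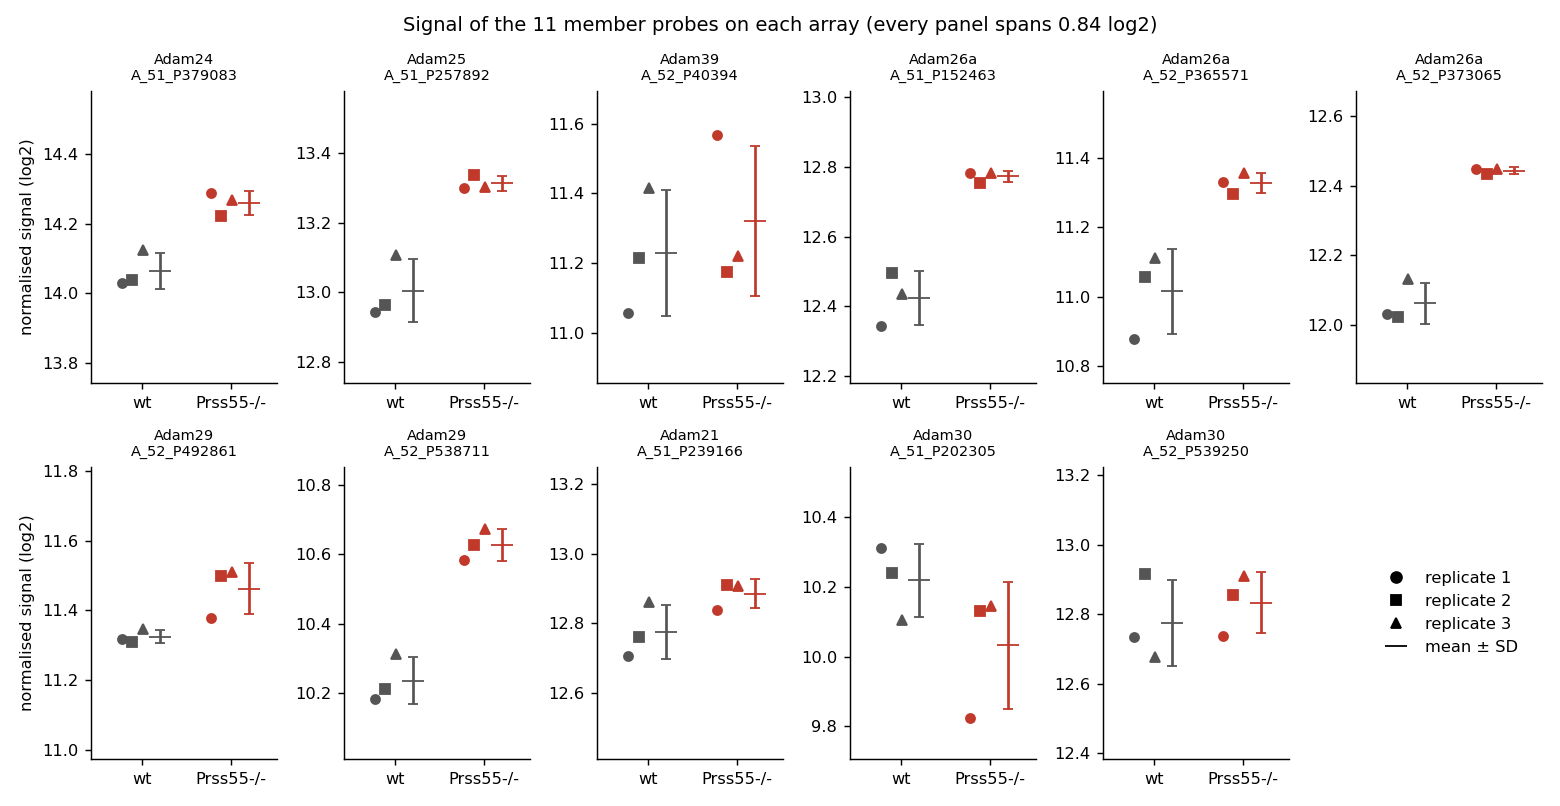
Normalised log2 signal of the 11 probes on each of the 6 arrays, 1 panel a probe, with wt in grey and Prss55-/- in red, marker shape giving the replicate number, and the bar beside the points the mean ± SD (n = 3). The groups are apart in the panels of Adam24, Adam25, Adam26a and Adam29, and overlap in those of Adam39, Adam21 and Adam30.

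Over the 11 probes 10 differences were above 0 and 1 below, with a median of 0.196; over all probes tested 50.6% were above 0 and the median was 0.0019. The median was 0.31 over the 8 probes on chromosome 8 and 0.059 over the 3 on other chromosomes. At an unadjusted p below 0.05, 7 of 11 probes were higher, against 9.82% of all tested probes. None of the 11 probes reached the thresholds named in the methods, an unadjusted p below 0.05 and a 2-fold change, which 0.608% of all tested probes reached with limma; under the methods' t-test the number among the 11 was also 0.

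**Figure D2:**
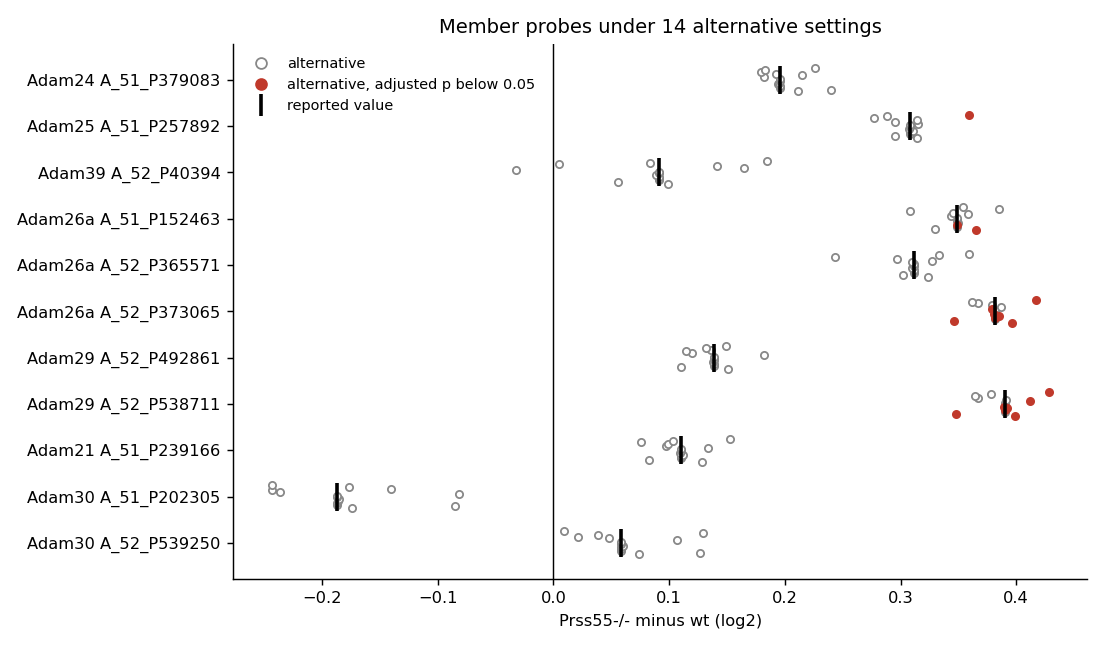
Difference between Prss55-/- and wt (log2) of each of the 11 probes under the reported fit (black bar) and 14 alternatives (circles, filled red where the adjusted p was below 0.05). All circles of Adam24, Adam25, Adam26a and Adam29 lie above 0, and 1 circle of Adam39 lies below it.

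The tested rest of the family gave no adjusted call. Among the 11 other testis ADAM genes, of which 10 were tested, limma called 0 at an adjusted p below 0.05, and at an unadjusted p below 0.05 it had 1 higher and 1 lower. Their median difference was -0.032, and the range over their 14 probes was from -0.264 to 0.201. Among the 14 remaining ADAM genes, most of them with roles outside the testis, 9 were tested, and limma called 0 at an adjusted p below 0.05, with 4 higher and 2 lower at an unadjusted p below 0.05. Dim probes outside the filter were not tested. Of these, the Adamdec1 probe read 6.4, 5.1 and 4.9 on the Prss55-/- arrays against 2.7, 2.7 and 2.7 on the wt arrays. The Adam28 probe A_52_P302284 read 5.5, 4.6 and 4.4 against 2.8, 2.8 and 2.8. They were well above background on 2 and 1 of the 6 arrays, and were picked out after their values were seen. The other untested probes of these lists had overlapping groups. The smallest p among the other ADAM genes tested was that of Adam8, a metalloprotease of leukocytes. It read 10.91, 10.79 and 10.94 on the Prss55-/- arrays against 10.53, 10.49 and 10.61 on the wt arrays, a difference of 0.34 (SE 0.063, limma adjusted p = 0.0709). Adam3, which encodes a sperm surface protein needed for migration into the oviduct, is named after its values were seen. It read 16.72, 16.49 and 16.51 against 16.84, 16.86 and 16.82, a difference of -0.26 (SE 0.072, limma adjusted p = 0.137), and it was the 1 gene of these lists called without Prss55-/- replicate 1. For comparison, 1.71% of all tested genes were called in either direction, and 24.9% had an unadjusted p below 0.05.

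**Figure D3:**
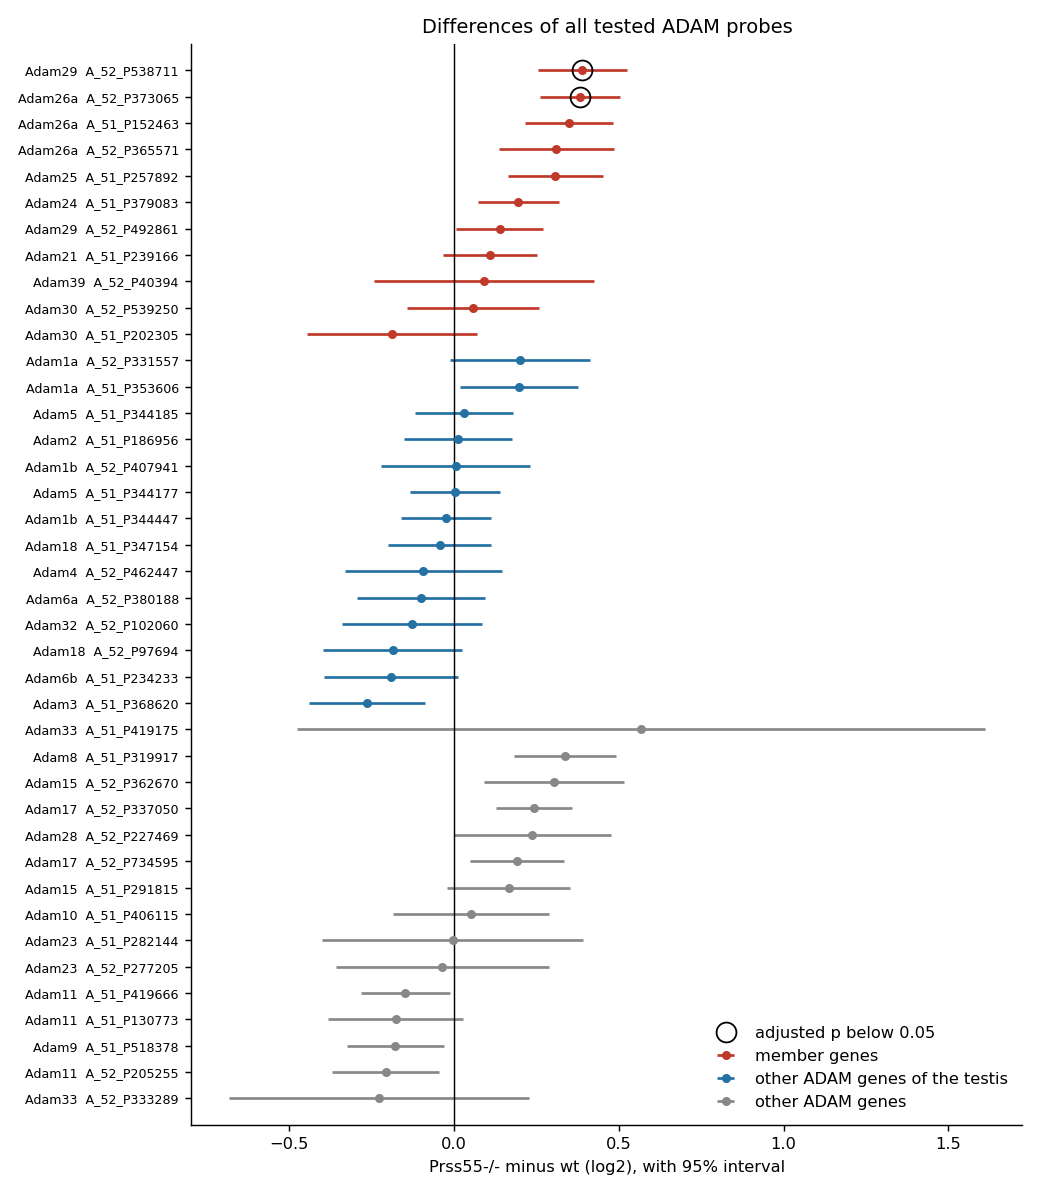
Difference between Prss55-/- and wt testis (log2, limma) of every tested ADAM probe, with 95% intervals, for the genes described here (red), the other testis ADAM genes (blue) and the remaining ADAM genes (grey). The 2 circled probes, of Adam29 and Adam26a, had an adjusted p below 0.05, and 0 of the blue and grey probes did.

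The testis holds many cell types, and the marker lists were read beside these differences. Of the 7 round spermatid markers, 4 were higher and 0 lower at an unadjusted p below 0.05, which 12.8% of all tested genes were in that direction, and 0 passed the adjusted threshold. Their median difference was 0.139, and their summed signal, taking the brightest probe of each gene, ran from 311000 to 316000 on the Prss55-/- arrays and from 296000 to 304000 on the wt arrays, without overlap. Spermatocyte markers had 1 of 7 higher, with sums from 346000 to 369000 against 325000 to 369000. Elongating spermatid markers had 1 of 7 lower, with sums from 1840000 to 1950000 against 1910000 to 1990000. The lower gene was Tnp2, which read 17.87, 17.83 and 17.86 on the Prss55-/- arrays against 17.98, 18.07 and 18.12 on the wt arrays. Prm1, Prm2, Tnp1 and Tnp2 itself of this list, and Ldhc of the spermatocyte list, had probes at the 100th percentile. Quantile normalisation gives such ranks the same few values on every array. The sums of both lists are therefore largely set by the normalisation and cannot show whether these cells shifted. Of the somatic lists, the peritubular and vascular markers summed to 12800 to 13600 against 13800 to 14600. Of their 4 tested genes 1 was lower at an unadjusted p below 0.05. Most of that sum was 1 Acta2 probe, A_52_P420504, whose groups lay only 0.0058 apart. The Leydig cell markers summed to 21200 to 35300 against 29600 to 37200, with 2 of 5 lower at an unadjusted p below 0.05. Over all tested genes, 2402 of 19181 were lower at that p. The part of such shifts in the ADAM differences was not tested.

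Around the chromosome 8 genes, some neighbours differed between the Prss55-/- mice, a comparison made after the values were seen. Within 1 Mb of these probes, 38 probes of 24 other genes were tested. On 12 of them, from 7 genes, Prss55-/- replicate 1 differed from the mean of replicates 2 and 3 by over 0.5 on the log2 scale, which is 31.6%, against 4.88% of all tested probes. All 12 were among the 33 probes nearest Adam24, Adam25, Adam39 or Adam26a, and 0 among the 5 nearest Adam29, where the largest distance was 0.378. The median distance was 0.274 over all 38 neighbours and 0.0887 over all tested probes. For the 8 probes of the chromosome 8 ADAM genes it was 0.0323, the furthest was Adam39 at 0.371, and 0 exceeded 0.5. No such excess was present beside Adam21, where 0 of 44 probes exceeded 0.5, or beside Adam30, where 1 of 31 did.

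Single readings of some neighbours are given here. A probe of Zfp42, which encodes a zinc finger protein of stem cells and germ cells, lies 0.273 Mb from an Adam26a probe and read 7.43 on Prss55-/- replicate 1 but 10.52 and 10.44 on replicates 2 and 3, against 7.48, 7.27 and 7.64 on the wt arrays. A second Zfp42 probe at nearly the same position showed less, with 10.90, 11.42 and 11.41 against wt readings from 10.89 to 11.07. A probe of Cnot7, a subunit of the CCR4-NOT deadenylase, lies 0.172 Mb from the Adam24 probe and read 8.82, 9.73 and 9.71 against 8.68, 8.70 and 8.59. Replicate 1 lay within the wt range on the first Zfp42 probe and 0.12 above the highest wt array on the Cnot7 probe. The Adam24, Adam25 and Adam26a probes read nearly the same on all 3 Prss55-/- arrays. Adam26a and Adam29 kept their adjusted calls without replicate 1 (limma adjusted p = 0.0443 and 0.042). Both calls were lost without replicate 2 (limma adjusted p = 0.149 and 0.165) and without replicate 3 (0.16 and 0.184). What the neighbours' difference between mice has to do with the ADAM values was not tested.

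Of these 38 neighbour probes, 8 had groups that did not overlap and were higher in Prss55-/- testis and 4 were lower. Over all tested probes the shares were 13.4% higher and 12.9% lower, and the difference from these shares was not tested. The higher ones included NAP094436-001, given above with Adam39, and a probe of Gm5347, 0.104 Mb from an Adam26a probe, which read 10.36, 10.37 and 10.44 against 10.07, 10.26 and 10.15 (difference 0.23, limma adjusted p = 0.135). Larger differences among the higher ones were those of Triml1 (1.14), Cnot7 (0.76 and 0.57), Frg1 (0.60) and Vps37a (0.54), with limma adjusted p from 0.0917 to 0.217. A second Triml1 probe without overlap differed by 0.19. Other Vps37a probes had overlapping groups and differences of 0.040 and -0.31. The lower ones included a probe of Mtus1, 0.166 Mb from the Adam39 probe, which read 8.31, 8.34 and 8.34 against 8.44, 8.49 and 8.41 (difference -0.11, limma adjusted p = 0.258). The Mtus1 probes disagreed, as its other tested probes had overlapping groups and differences of the opposite sign (0.40, 0.57 and 0.225). None of the 12 probes without overlap passed the adjusted threshold, and the ones named were picked out after their values were seen.

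Over all 74 genes with tested probes within 1 Mb of any of the 11 probes, limma called 1 gene, against 1.71% of all tested genes. This was 0610009B14Rik, 0.872 Mb from the Adam21 probe on chromosome 12, which read 8.01, 7.68 and 7.71 on the Prss55-/- arrays against 8.58, 8.68 and 8.70 on the wt arrays (difference -0.85, SE 0.099, limma adjusted p = 0.0227). It was called under 6 of 14 alternatives and lost under 8, with adjusted p from 0.0531 to 0.132: no filter, the replicate block, the methods' t-test, and without any 1 array except Prss55-/- replicate 1. Without Prss55-/- replicate 1 the number called was 11 genes. Among them, Cnot7, Frg1, Mtus1, Triml1, Vps37a, Zdhhc2 and Zfp42 lie near the chromosome 8 ADAM genes, and Hsd3b1 and Olfr1402 near Adam30. Without Prss55-/- replicate 3 or wt replicate 3 the 1 gene called was a different one.

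**Figure D4:**
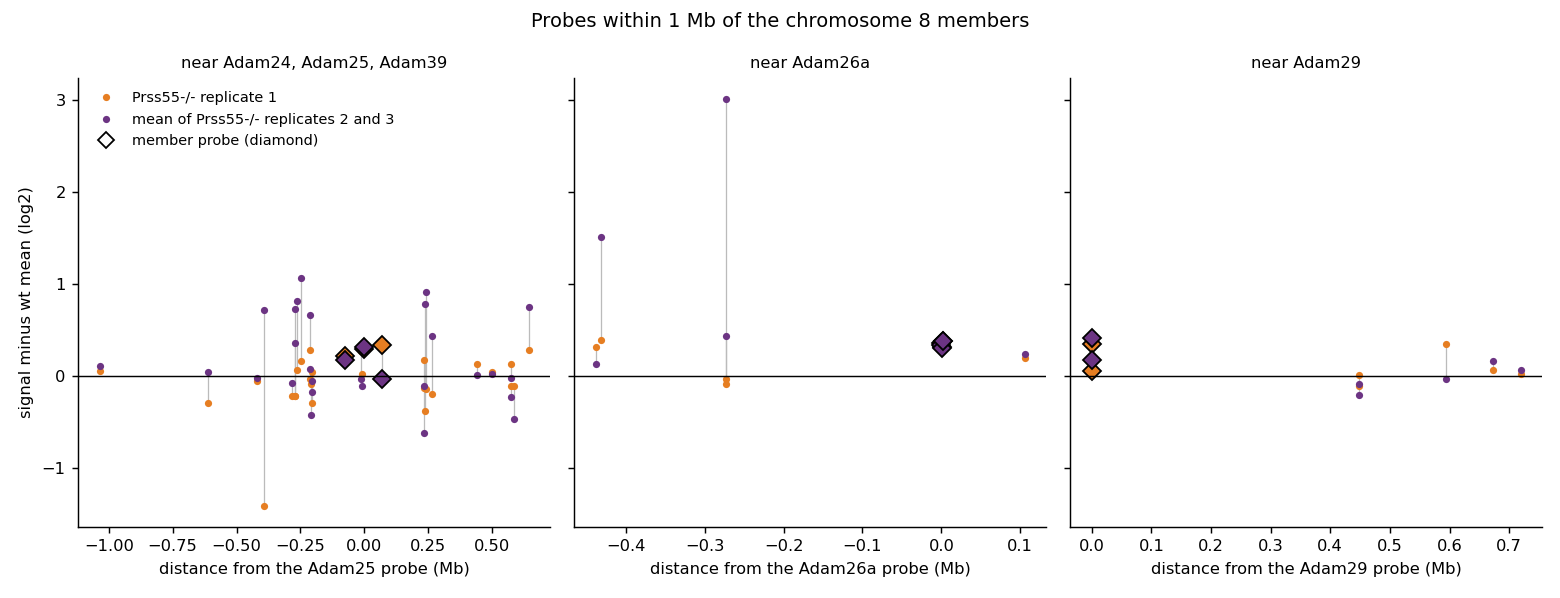
Signal minus the wt mean (log2) of every tested probe within 1 Mb of the chromosome 8 ADAM probes, against distance in Mb, for Prss55-/- replicate 1 (orange) and the mean of replicates 2 and 3 (purple), joined by a grey line. ADAM probes are diamonds. Long grey lines belong to neighbours such as Zfp42, while the orange and purple diamonds of Adam24, Adam25 and Adam26a nearly coincide.

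The upstream sequences of the members were compared with each other, with no test. RefSeq promoters on GRCm38.p6, from 250 bases before to 50 bases after the annotated start, were matched for 5 of the 9 genes: Adam21, Adam25, Adam26b, Adam29 and Adam34. Adam24, Adam26a, Adam30 and Adam39 were not matched. The longest run of letters shared by any pair was 12 bases, between Adam25 and Adam26b, and the next longest was 10 bases. The last 100 bases before the start are printed for these 2 genes and for Adam20, with the shared run in capitals. Their positions are on GRCm38.p6 and cannot be set against the mm9 positions of the probes.
Adam25, chr8:40752108-40752207, plus strand: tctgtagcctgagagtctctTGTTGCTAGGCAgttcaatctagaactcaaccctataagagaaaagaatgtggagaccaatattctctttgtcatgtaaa
Adam20, chr8:40793173-40793272, plus strand: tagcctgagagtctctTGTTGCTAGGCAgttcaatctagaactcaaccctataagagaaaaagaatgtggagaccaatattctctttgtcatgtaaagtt
Adam26b, chr8:43528138-43528237, minus strand: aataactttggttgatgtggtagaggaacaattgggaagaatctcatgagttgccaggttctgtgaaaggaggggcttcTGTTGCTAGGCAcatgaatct

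The run TGTTGCTAGGCA, searched on both strands, was present in 12 of 32851 promoters (0.0365%), of which 4 belong to ADAM genes: Adam25, Adam26b, Adam20 and Adam34l. It begins 80 bases before the start of Adam25, 84 before that of Adam20 and 21 before that of Adam26b, and it was not in the windows of Adam21, Adam29 or Adam34. It was found by comparing these sequences, so its share is a description. Adam20 shares a run of 88 bases with Adam25. The probe named Adam20 was not well above background on any array, so it gave no difference to set beside that of Adam25. Adam20 is named after its values were seen, and a match of letters is no evidence of a bound factor.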

How the data were processed

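Single-colour arrays measured testis RNA of 6 mice, 3 a genotype. The authors deposited for each array the output of Agilent Feature Extraction 10.7.3.1, whose processed signal is an intensity corrected for background and not normalised between arrays. The authors also deposited a matrix of log2 values, quantile-normalised in GeneSpring GX 12.6.1, each column of which had r of at least 0.9997 with the scanner values of the same array.

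Here outlier spots were set missing, signals below 1 were set to 1, log2 values were quantile-normalised and spots of a probe averaged. A probe was kept where either genotype had it well above background on its 3 arrays, which left 28606 probes of 19181 genes. They were tested with limma 3.58.1 in R 4.3.3, two-sided, with Benjamini-Hochberg adjustment over all of them. A gene was called if any of its probes had an adjusted p below 0.05. The labels do not say more of the samples than 1 mouse each, so p-values set a difference against the spread between the arrays of these mice. With 1 array a mouse that spread also holds measurement error, and limma draws it partly from all tested probes. For wt that spread also holds any difference between slides. Intervals are 95% intervals of the limma fit. The fit was tested on simulated arrays of the same design.

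Named were all 9 genes, the targeted gene, and, among other ADAM genes and neighbours within 1 Mb, those called or else the one with the smallest p, besides the 5 genes most like the widest-ranging probe, of which 1 is not reported here. Genes named otherwise are said to be. The genes, lists and tests were chosen with earlier results of these data known. Alternatives changed the scaling, the background correction, the filter, the test, the block and the arrays used. Marker lists of 9 groups were summed over the brightest probe of each gene. Summaries used Python 3.11.15, numpy 2.4.6, pandas 2.3.3 and matplotlib 3.10.9. Transcript names came from RefSeq, and array positions are on mm9, per the file headers.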

Additional observations from a re-analysis of the deposited data

How the results depend on the processing

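Over 14 alternatives the 11 probes gave 154 differences, of which 153 kept their sign; Adam39 turned to -0.033 without Prss55-/- replicate 1, and over the leave-one-out fits lay between -0.033 and 0.185. The median difference of the 11 probes lay between 0.179 and 0.240, and between 0.179 and 0.226 when 1 array was left out. The number of the 9 genes called fell from 2 to 0 with no filter on dim probes, with the replicate block and with the methods' t-test, and was between 0 and 3 when 1 array was left out. With no filter more probes entered the adjustment. No label ties equal replicate numbers to a shared litter or day, though the study speaks of pairs of mice without saying which, and same-numbered arrays deviated with correlations of -0.054, -0.023 and -0.112, so the block was not used; with the replicate block 13 probes were called over the whole array, against 346 without it. Other totals were 140 with no filter, 87 with the methods' t-test and 44 to 860 when 1 array was left out. Of the other ADAM genes 0 were called under each alternative except without Prss55-/- replicate 1, so leaving out 1 array gave 0 to 1. Of the genes within 1 Mb, 1 was called; this became 2 with normexp background correction, 0 with no filter, 0 with the replicate block, 0 with the methods' t-test, and 0 to 11 when 1 array was left out, the highest without Prss55-/- replicate 1. Prss55 itself stayed lower, at -0.90 with adjusted p = 0.101 under the replicate block (limma) and -0.90 with adjusted p = 0.0713 under the methods' test, and between -0.956 and -0.837 when 1 array was left out, where it lost its call (limma adjusted p = 0.0683, 0.0698 and 0.0667) without Prss55-/- replicate 2, Prss55-/- replicate 3 and wt replicate 1. Unless stated, the cause of these changes was not tested.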

Other observations

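Of the remaining marker lists, spermatogonium markers had 1 gene higher and 1 lower of 6 tested at an unadjusted p below 0.05, Sertoli cell markers 1 higher and 1 lower of 6, and macrophage markers 2 lower of 5, each with 0 past the limma adjusted threshold. Their median differences were -0.012, -0.033 and -0.12 on the log2 scale. Over all 19181 tested genes, 2447 were higher and 2402 lower at an unadjusted p below 0.05. Of the epididymis markers 2 of 7 were tested, with 1 higher at an unadjusted p below 0.05.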
